A study of Mus musculus with 4 samples.

Results

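The DNA replication and nucleotide supply genes were followed in bone marrow-derived macrophages as a set of 52 genes listed by function, of which 51 were among the 11111 genes measured; Orc1 is not analysed here. The set spans the MCM helicase and its activators, the origin recognition complex, the sliding clamp and its loader, the replicative polymerases, the enzymes that finish the lagging strand, the enzymes that supply deoxynucleotides, and several chromatin assembly and S-phase regulators. RNA sequencing compared cultures in which morpholinos targeted Regnase-1 (Reg1-MOs, 2 libraries) with cultures that had a control morpholino (Ctrl MO, 2 libraries). Cells of both groups came from wild-type C57BL/6 mice, were grown for 7 days in macrophage medium that was changed on day 4, received 2 µM morpholino with the delivery peptide Endoporter for 24 hours, and were then exposed for 4 hours to 10 ng/ml lipopolysaccharide (LPS), a component of bacterial outer membranes. Whether replicates are separate mice or separate cultures is not in the labels, and p-values here therefore reflect library-to-library spread alone, possibly technical. Nor do they settle whether each Reg1-MOs library received 1 targeting morpholino or both.

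Before DNA synthesis, the origin recognition complex, Cdc6 and Cdt1 load the MCM2-7 ring onto DNA as an inactive helicase, and Cdc45, the GINS complex and Mcm10 convert it into the active form. Polymerase alpha with primase starts each strand, polymerases epsilon and delta extend it on the Pcna clamp that replication factor C loads, and Fen1 and Lig1 process and join the Okazaki fragments. Many of these genes are transcribed under E2F factors when a cell enters S phase, whereas mature macrophages divide little and keep their deoxynucleotide pools small.

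Each library held 23369753 to 25213695 reads over the measured genes. Levels are given in RPM, reads scaled to a library size, which here is the deposited log2 value turned back to a linear value on the authors' scale; fold changes set Reg1-MOs over Ctrl MO and carry the moderated standard error (SE) and the Benjamini-Hochberg adjusted p over all 11111 genes from limma, and the threshold was an adjusted p of 0.05. Zc3h12a, which encodes the targeted Regnase-1, stood at 402.5 and 380.1 RPM with Reg1-MOs and at 178.6 and 187.4 with Ctrl MO, a log2 fold change of 1.10. All 8 macrophage markers looked for were measured, with summed levels of 17903 to 17953 RPM with Reg1-MOs and 19756 to 19772 with Ctrl MO. Of these markers, 1 rose and 2 fell (37.5% called, beside 12.2% of all genes).

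Promoter sequence was not used to choose these genes, and part of them hold an E2F site there. The letters searched, on both strands, were the 4 forms of the E2F site TTTCCCGC, TTTCGCGC, TTTGCCGC and TTTGGCGC, in RefSeq windows of 300 bases around annotated starts on build GRCm38.p6. Windows were found for 44 of the 51 measured members, and 16 of the 44 (36.4%) held an E2F site in at least 1 window. By window, the letters stood in 31.5% of the members' windows, in 4.04% of the windows of all genes of the table and in 2.26% of all windows, with a median GC content of 62.7%, 60.7% and 52.7% in these sets. The stretches below are shown because they carry the site in genes of the helicase, the loading factors, the clamp loader and the polymerase; capitals mark 1 match of the E2F letters per stretch, and each is read 5′ to 3′ on the gene's strand.
Mcm3 (chr1:20820263-20820292, minus strand): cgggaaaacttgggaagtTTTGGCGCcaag
Mcm5 (chr8:75109345-75109374, plus strand): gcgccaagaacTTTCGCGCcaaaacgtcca
Mcm6 (chr1:128359734-128359763, minus strand): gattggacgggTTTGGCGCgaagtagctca
Mcm6, second site (chr1:128359797-128359826, minus strand): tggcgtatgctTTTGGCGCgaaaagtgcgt
Mcm7 (chr5:138171849-138171878, minus strand): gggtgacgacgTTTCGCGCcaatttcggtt
Cdt1 (chr8:122568035-122568064, plus strand): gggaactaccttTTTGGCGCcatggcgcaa
Cdc6 (chr11:98908002-98908031, plus strand): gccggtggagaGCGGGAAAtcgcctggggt
Rfc3 (chr5:151651200-151651229, minus strand): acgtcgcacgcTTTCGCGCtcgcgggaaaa
Pold3 (chr7:100121467-100121496, minus strand): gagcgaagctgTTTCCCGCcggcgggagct
Further matches on the other strand stand wholly or partly in lower case in the stretches of Mcm3, Mcm5, Rfc3 and the second Mcm6 site. Mcm7 has another match outside the stretch printed. These matches describe letters in a window and not binding.

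The letters CCAAT of the CCAAT box were likewise searched on both strands. The box stood in 51.9% of the members' windows, in 78.3% of those of the mitosis genes and in 37.4% of those of all genes of the table. It is shown for both subunit genes of ribonucleotide reductase, whose levels are described further on, with the CCAAT letters in capitals. The Rrm1 window holds 2 such boxes.
Rrm1 (chr7:102441593-102441622, plus strand): cttgcccacacCCAATatggcggcaggaga
Rrm1, second box (chr7:102441639-102441668, plus strand): tccgctttcacCCAATgtggtggaaaggag
Rrm2 (chr12:24708193-24708222, plus strand): gtcagcggcgtCCAATgggaggcgaggcca
The cell cycle homology region TTTGAA, known from promoters of mitotic genes, stood in 9.26% of the members' windows, in 69.6% of the windows of the mitosis genes and in 11.9% of those of all genes of the table.

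Few replication genes passed the test with Reg1-MOs. Of the 51 measured members, 1 rose and 0 fell by limma, which is 1.96% called beside a background of 12.2% of all genes (6.22% rose and 6.03% fell). The gene that rose was Chaf1b. At an unadjusted p of 0.05, 9 members were past the threshold, or 17.6%, beside 29.4% of all genes. The median log2 fold change was 0.02 over the members and -0.03 over all genes, and it stood at -0.02 without Reg1-MOs replicate 2.

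Intervals of the fold change were narrower for the more deeply read members. They are not adjusted for the number of genes, so they do not give the smallest change the test could call. Of the 51 members, 28 had a mean of at least 100 reads, and for all 28 of these the 95% interval of the log2 fold change lay within a 2-fold change in either direction; for 25 of them it lay within 1.5-fold. Among the 23 members with a lower mean, the interval lay within 2-fold for 16 and within 1.5-fold for 4. Over all 51 members, it lay within 2-fold for 44 and within 1.5-fold for 29. Of all 11111 genes, 9711 and 7290 had intervals within these bounds. The median over all genes was 404 to 437 reads per library, above the mean of each of these 23 members. Values of the libraries did not overlap between the groups for 18 members that were higher with Reg1-MOs and 15 that were lower, which is 64.7% of the members beside 58.9% of all genes (27.1% higher and 31.8% lower). Separation of 2 libraries from 2 was thus about as frequent among the members as in the table at large.

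**Figure D1:**
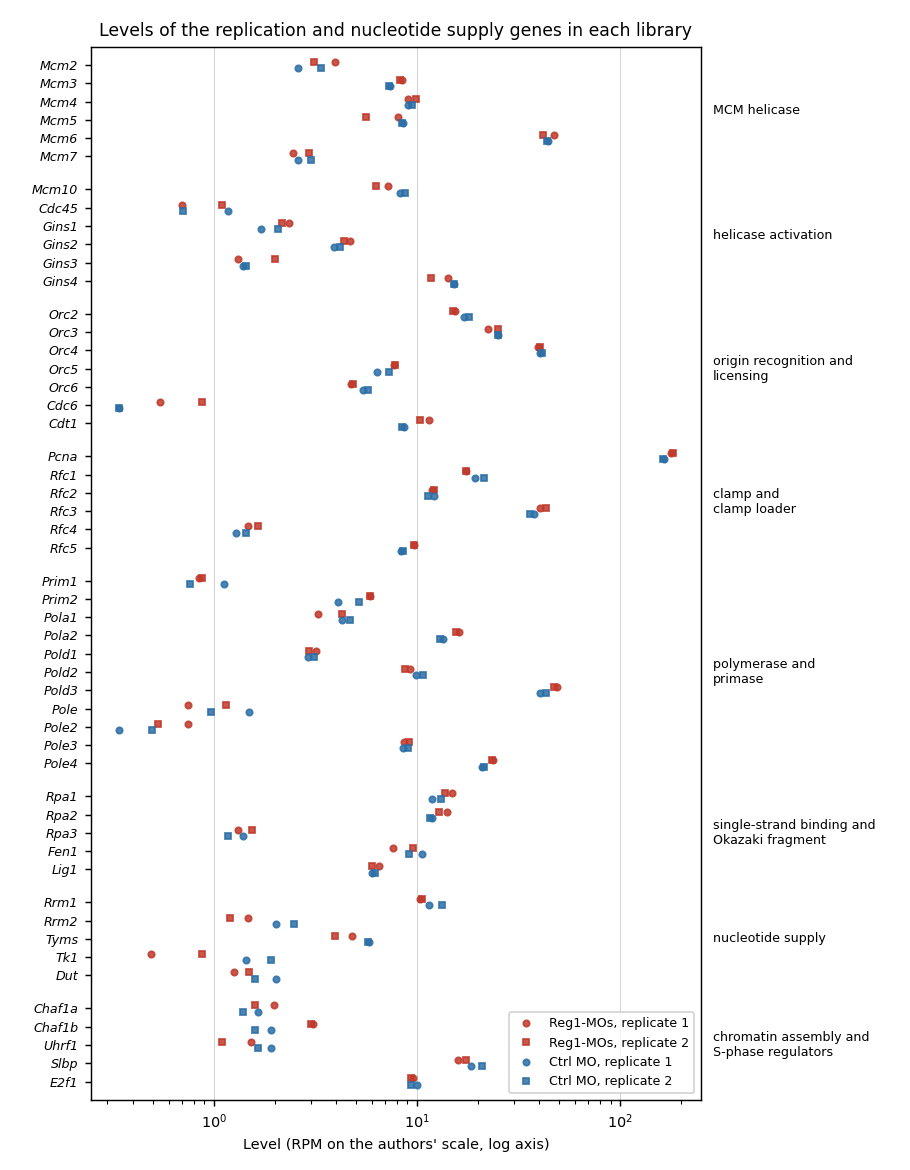
Levels of the 51 measured members in each of the 4 libraries, in RPM on the authors' scale (log axis), grouped by role; red marks Reg1-MOs and blue Ctrl MO, with circles for replicate 1 and squares for replicate 2. Pcna lies at 163 RPM or more in all libraries, while Cdc6 and Pole2 lie below 1.

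The 6 genes of the MCM ring showed no change past the threshold, with log2 fold changes of -0.34 to 0.24. Mcm5 stood at 8.08 and 5.60 RPM with Reg1-MOs and at 8.52 and 8.47 with Ctrl MO. Only replicate 2 of the Reg1-MOs libraries was well below the controls, and its log2 fold change, -0.34 (SE 0.18, limma adjusted p = 0.266) stood at -0.07 without it. Mcm3 had 8.44 and 8.25 RPM with Reg1-MOs against 7.42 and 7.32 with Ctrl MO, with log2 fold change 0.18 (SE 0.12, limma adjusted p = 0.364). Both Reg1-MOs libraries were higher for this gene, as for 27.1% of all genes, and by less than the test could call. Mcm6, the most abundant of the ring, had 47.5 and 41.7 RPM with Reg1-MOs against 44.4 and 44.0 with Ctrl MO, with a log2 fold change of 0.01 and a 95% interval of -0.20 to 0.22. The groups overlapped for Mcm2, Mcm4, Mcm6 and Mcm7. The summed level of the 6 genes was 79.5 and 71.6 RPM with Reg1-MOs and 74.7 and 75.7 with Ctrl MO.

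Scaled to length, the MCM genes were far from equal although their products assemble as 1 of each per ring. Mcm6 averaged 15.3 RPM per kb of its principal transcript over the 4 libraries, and the other members of the ring averaged between 0.930 (Mcm7) and 2.62 (Mcm4). In single libraries, Mcm6 stood at 8.42 and 7.91 times the mean of the other MCM genes with Reg1-MOs and at 8.35 and 7.88 times with Ctrl MO. The excess was therefore the same in both groups within the spread of the libraries. It came to 6.16 times over all libraries, against 8.14, when lengths were taken as the union of all annotated exons. Mcm7 shares exonic bases with Ap4m1 and Cops6 on the other strand, so its level also depends on a strand setting that is not given in the sources used here.

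**Figure D2:**
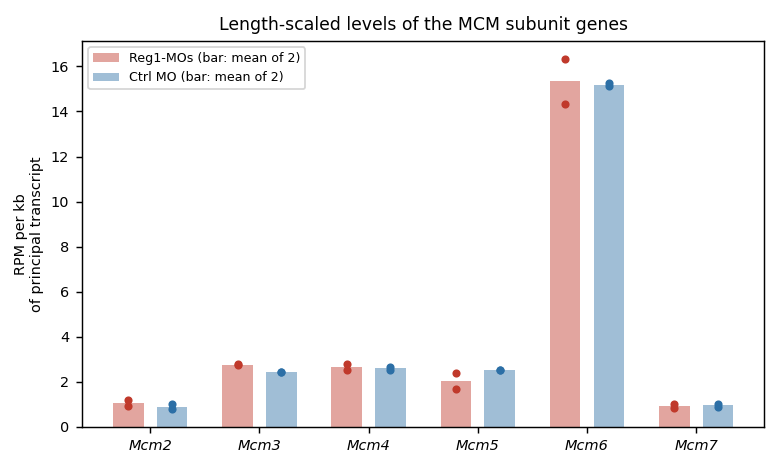
Levels of the 6 MCM ring genes in RPM per kb of principal transcript; bars are the mean of 2 libraries (red, Reg1-MOs; blue, Ctrl MO) and points the libraries. Mcm6 lies between 14.3 and 16.3 in all 4 libraries, and the next highest value of any MCM gene is 2.78 (Mcm3).

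None of the 6 genes that activate the helicase passed. Mcm10, which helps to start unwinding, had 7.20 and 6.28 RPM with Reg1-MOs against 8.26 and 8.79 with Ctrl MO, with log2 fold change -0.34 (SE 0.13, limma adjusted p = 0.139). The GINS subunit gene Gins4 had 14.3 and 11.7 RPM with Reg1-MOs against 15.3 in each Ctrl MO library, at -0.24 (SE 0.12, limma adjusted p = 0.244). For both genes the Reg1-MOs libraries lay below the controls, as for 31.8% of all genes. Cdc45, read at only 13 to 22 reads per library, had overlapping groups and a wide 95% interval of -0.97 to 0.84. The other GINS genes stood at 0.26 (Gins1), 0.16 (Gins2) and 0.20 (Gins3). Gins1 and Gins2 were higher in both Reg1-MOs libraries, as were 27.1% of all genes. The groups overlapped for Gins3, which stood at -0.11 without Reg1-MOs replicate 2.

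Among the 7 measured genes of origin recognition and licensing, the 2 loading factors had the smallest p-values and none passed. Cdt1, which brings MCM to the origin, had 11.5 and 10.3 RPM with Reg1-MOs against 8.62 and 8.47 with Ctrl MO, with log2 fold change 0.35 (SE 0.12, limma adjusted p = 0.0983). Cdc6, an ATPase of the same step, had 0.542 and 0.872 RPM with Reg1-MOs and 0.341 in each Ctrl MO library, at 1.01 (SE 0.43, limma adjusted p = 0.167). Both were higher in both Reg1-MOs libraries, but the Cdc6 values rest on 10 and 15 reads against 6 and 6. The ORC genes differed in direction. Orc2 (-0.20) and Orc6 (-0.22) were lower in both Reg1-MOs libraries and Orc5 (0.19) was higher in both. Without overlap, 31.8% of all genes were lower and 27.1% higher. Orc3 (-0.09) had 22.3 and 25.13 RPM with Reg1-MOs against 25.14 and 25.16 with Ctrl MO, so Reg1-MOs replicate 2 was level with the controls. Orc4, one of the deepest ORC genes, had 39.6 and 40.7 RPM with Reg1-MOs against 40.3 and 41.2 with Ctrl MO, with a 95% interval of -0.21 to 0.16.

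No clamp or clamp loader gene passed; Pcna and 3 of the 5 loader subunits were higher in both Reg1-MOs libraries, and Rfc1 was lower in both, beside 27.1% of all genes that were higher and 31.8% that were lower without overlap. Pcna, the sliding clamp and the most abundant member, had 179 and 183 RPM with Reg1-MOs against 164 and 163 with Ctrl MO. Its log2 fold change was 0.15 (95% interval -0.00 to 0.30; SE 0.06, limma adjusted p = 0.181), so the groups were separate but the difference was small. Rfc1, the large loader subunit, went the other way, with 17.6 and 17.5 RPM against 19.4 and 21.5 with Ctrl MO, at -0.22 (SE 0.10, limma adjusted p = 0.186). Rfc3 had 40.4 and 43.1 RPM with Reg1-MOs against 37.8 and 36.3 with Ctrl MO, at 0.17 (SE 0.08, limma adjusted p = 0.215). The remaining loader genes stood at 0.03 (Rfc2), 0.20 (Rfc4) and 0.19 (Rfc5). The annotation holds 2 pseudogenes named after Pcna, and how reads shared with them were counted is not given in the sources used here.

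Polymerase and primase genes, 11 in all, had a median log2 fold change of 0.02 and no call. Pola2, a regulatory subunit of polymerase alpha, had 16.1 and 15.6 RPM with Reg1-MOs against 13.4 and 13.0 with Ctrl MO, at 0.26 (SE 0.10, limma adjusted p = 0.138). Pold3, an accessory subunit of polymerase delta, had 48.95 and 47.4 RPM against 40.5 and 43.2 with Ctrl MO, at 0.20 (SE 0.08, limma adjusted p = 0.143). Each was higher in both Reg1-MOs libraries, as were Prim2 (0.34), Pole4 (0.16) and Pole2 (0.62). Pold2, another accessory subunit of polymerase delta, was lower in both (9.26 and 8.75 RPM against 9.88 and 10.7 with Ctrl MO, at -0.19). Without overlap, 5 of the 11 genes were higher and 1 was lower, beside 27.1% and 31.8% of all genes. The catalytic genes stood at -0.25 for Pola1, 0.02 for Pold1 and -0.37 for Pole, with overlapping groups for all 3. Pole and Pole2 were measured with 6 to 28 reads per library and have intervals of -1.20 to 0.45 and -0.38 to 1.61.

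None of the 5 genes for single-strand binding and Okazaki fragment processing passed. Rpa2, a subunit of the protein that coats single-stranded DNA, had 14.1 and 12.9 RPM with Reg1-MOs against 11.9 and 11.6 with Ctrl MO, at 0.20 (SE 0.11, limma adjusted p = 0.260). Its partner Rpa1 had 15.0 and 13.8 RPM against 11.9 and 13.1 with Ctrl MO, also at 0.20 (SE 0.11, limma adjusted p = 0.274). The groups were separate for both, with Reg1-MOs higher, as for 27.1% of all genes. Fen1, the flap nuclease, stood at -0.21, Lig1, the ligase that seals the fragments, at 0.03 and Rpa3 at 0.16, each with overlapping groups. Their 95% intervals were -0.57 to 0.15 for Fen1, -0.28 to 0.35 for Lig1 and -0.44 to 0.75 for Rpa3, the last from 22 to 27 reads.

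The 5 nucleotide supply genes were the only role in which every member was lower in both Reg1-MOs libraries than in both Ctrl MO libraries, although none passed the threshold; groups did not overlap in that direction for 31.8% of all genes. Their median log2 fold change was -0.41, and their summed level was 18.4 and 18.1 RPM with Reg1-MOs against 22.8 and 25.0 with Ctrl MO. In bulk RNA, fewer cells making a transcript and less of it per cell cannot be told apart. Tk1, the thymidine kinase of the salvage pathway, had 0.490 and 0.872 RPM with Reg1-MOs against 1.44 and 1.92 with Ctrl MO, from 9 and 15 reads against 27 and 36. Its log2 fold change was -1.35 (SE 0.36, 95% interval -2.19 to -0.50, limma adjusted p = 0.0519), just outside the threshold. Tk1 passed with equal totals, quantile normalization or voom weights, and did not pass with an offset of 8 reads or without the variance trend. It also passed with the replicate number as a block, although the labels do not pair the replicates. With 1 library left out, its log2 fold change ranged from -1.76 to -0.93. Its exons share bases with Afmid on the other strand.

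Rrm2, the radical-bearing small subunit of ribonucleotide reductase, had 1.47 and 1.21 RPM with Reg1-MOs against 2.02 and 2.49 with Ctrl MO. Its log2 fold change was -0.75 (SE 0.24, limma adjusted p = 0.0845). The large subunit gene Rrm1 had 10.4 and 10.6 RPM with Reg1-MOs against 11.5 and 13.2 with Ctrl MO, at -0.24 (SE 0.12, limma adjusted p = 0.232). Both subunits were thus lower, and per kb Rrm1 stood at 3.88 and 4.78 times Rrm2 with Reg1-MOs and at 3.13 and 2.92 times with Ctrl MO. Tyms, which makes thymidylate, had 4.77 and 3.97 RPM with Reg1-MOs against 5.79 and 5.75 with Ctrl MO, at -0.41 (SE 0.16, limma adjusted p = 0.133); a pseudogene named after it is annotated. Dut, which removes dUTP, had 1.26 and 1.49 RPM with Reg1-MOs against 2.02 and 1.60 with Ctrl MO, at -0.39 (SE 0.25, limma adjusted p = 0.342). All 5 fold changes were negative in each of the alternative fits run on all 5 genes. For groups that do not overlap, leaving out 1 library cannot change the sign. The fits without the variance trend and with the replicate block leave the fold change itself as it was, with a median of -0.41. None of these fits therefore adds support.

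**Figure D3:**
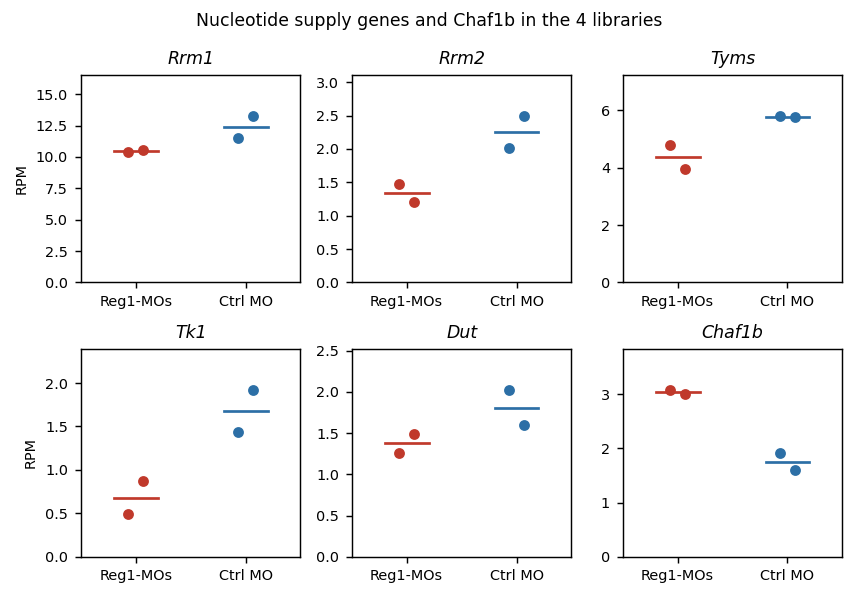
Levels of the 5 nucleotide supply genes and of Chaf1b in RPM on the authors' scale; points are libraries and lines the mean of 2, with Reg1-MOs on the left and Ctrl MO on the right of each panel. The 5 nucleotide supply genes lie lower in both Reg1-MOs libraries, and Chaf1b lies at 3.07 and 3.01 against 1.91 and 1.60.

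Chaf1b, the middle subunit of the chromatin assembly factor that deposits histones behind the fork, rose 1.74-fold with Reg1-MOs. It had 3.07 and 3.01 RPM with Reg1-MOs against 1.91 and 1.60 with Ctrl MO, from 59 and 53 reads against 36 and 30, with log2 fold change 0.80 (SE 0.20, 95% interval 0.33 to 1.27, limma adjusted p = 0.0430). The gene lies on chromosome 16, 93883901 to 93906115 on GRCm38, plus strand, and its exons overlap no other annotated gene. The call ended without Reg1-MOs replicate 1 (adjusted p = 0.129), without Reg1-MOs replicate 2 (0.0889), without Ctrl MO replicate 2 (0.217) and without a variance trend (0.0544), and it held without Ctrl MO replicate 1 (limma adjusted p = 0.0484). Its partner subunit gene Chaf1a had 1.99 and 1.60 RPM against 1.65 and 1.39 with Ctrl MO, with overlapping groups and a log2 fold change of 0.24 (limma adjusted p = 0.559). Most of the annotated exonic bases of Chaf1a also belong to Ubxn6 on the other strand.

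The other S-phase regulators did not pass. Slbp, the protein that binds the stem-loop of replication-dependent histone mRNAs, had 16.0 and 17.5 RPM with Reg1-MOs against 18.4 and 21.0 with Ctrl MO, at -0.23 (SE 0.11, limma adjusted p = 0.207). Uhrf1, which couples DNA methylation to replication, stood at -0.46 (limma adjusted p = 0.292) from 19 to 36 reads per library. For both, the Reg1-MOs libraries were below the controls, as for 31.8% of all genes. E2f1, the activating transcription factor of the G1 to S transition, had 9.57 and 9.31 RPM with Reg1-MOs against 9.99 and 9.42 with Ctrl MO, with a 95% interval of -0.31 to 0.23. Among the members whose windows hold the E2F letters, 0 of 16 passed and the median log2 fold change was 0.10. Among the 28 with windows that do not, 1 passed and the median was -0.05. The 7 members without a window had 0 calls and a median of 0.03. Of all genes, 12.2% were called and the median was -0.03. The difference between these sets was not tested.

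**Figure D4:**
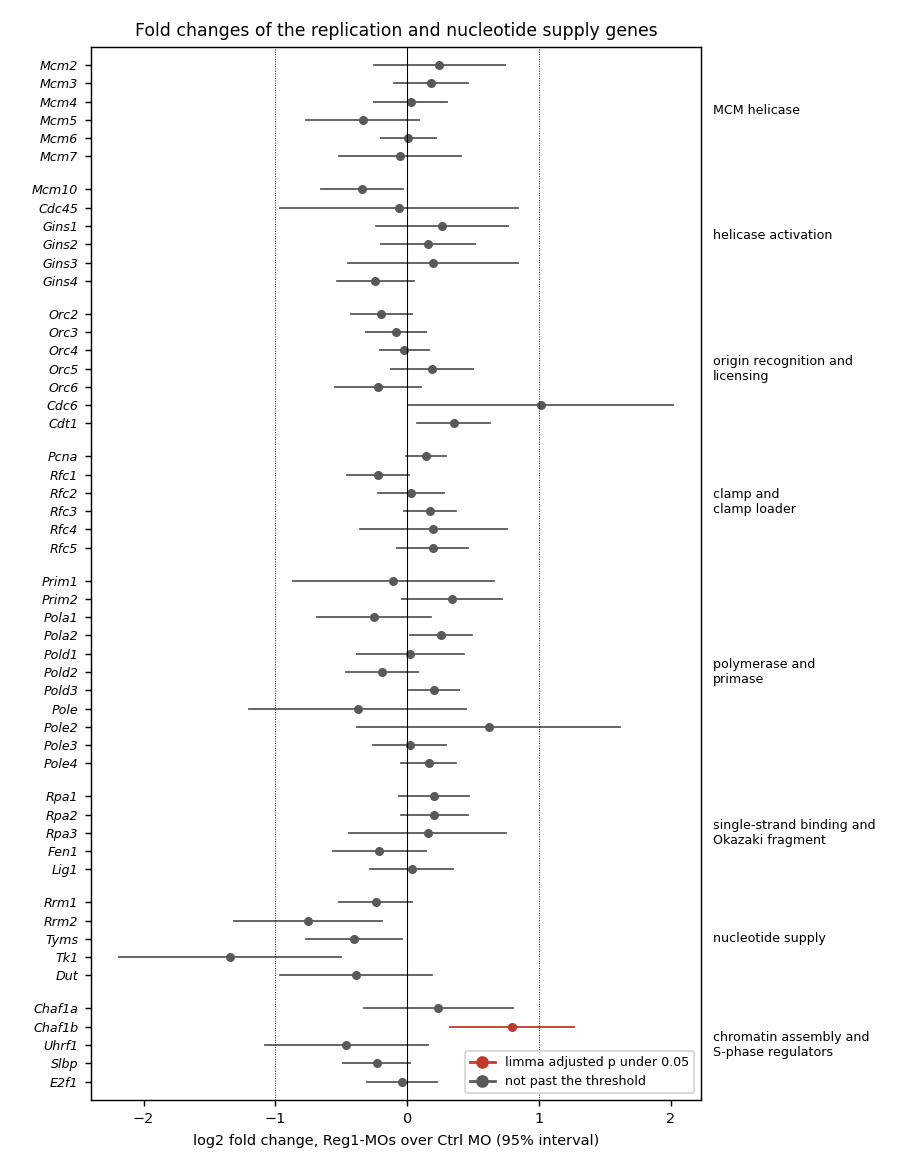
Log2 fold changes of the 51 measured members, Reg1-MOs over Ctrl MO, with 95% intervals from limma, grouped by role; dotted lines mark a 2-fold change. Chaf1b (red, 0.80) is past the threshold, and the 5 nucleotide supply genes all lie left of 0, from -1.35 for Tk1 to -0.24 for Rrm1.

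Levels differed between subunits of the same complex much more than between the groups. Per kb of principal transcript and averaged over the 4 libraries, Pcna led at 113 RPM, followed by Rfc3 at 29.9, with ranges over libraries (107 to 120 and 27.6 to 32.8) that did not meet. Next came Mcm6 at 15.3 and Pold3 at 14.7, whose ranges of 14.3 to 16.3 and 13.2 to 15.9 overlapped, so their order is not resolved. In the polymerase epsilon complex, the histone-fold subunit genes Pole4 and Pole3 stood at 12.7 and 4.91 RPM per kb, against 0.152 for the catalytic Pole and 0.311 for Pole2. In polymerase delta the order was Pold3 (14.7), Pold2 (5.86) and the catalytic Pold1 (0.880). Gins4 stood at 10.5, above Gins1 (1.91), Gins2 (1.10) and Gins3 (0.610), and Rfc4 stood at 1.19 against the 29.9 of Rfc3. The ORC genes were closer together, between 3.48 (Orc5) and 10.6 (Orc3). The lowest levels per kb were those of Pole and Cdc6 (0.205), whose ranges over libraries overlapped. Several of these orders depend on the length used. With the union of annotated exons, an alternative chosen after seeing the data, Rfc3 stood at 10.9, Gins4 at 10.5, Pold3 at 9.78 and Mcm6 at 9.52, and the ORC genes ran from 1.19 (Orc5) to 5.42 (Orc4). The orders within polymerase epsilon, polymerase delta and GINS that are named above were the same with both lengths.

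Related genes outside the set were counted in the same fit. Of 29 other replication factors measured, 0 rose and 1 fell (3.45% called, beside 12.2% of all genes), with a median of -0.02. The one that fell was Mcmbp, which binds free MCM subunits, with 149 and 168 RPM with Reg1-MOs against 192 and 206 with Ctrl MO (log2 fold change -0.33, SE 0.08, limma adjusted p = 0.0406). The next by p were the histone chaperone Asf1a at 0.44 (adjusted p = 0.0635), the MCM paralogue Mcm8 at -1.05 (0.0766) and the checkpoint adaptor Clspn at -1.43 (limma adjusted p = 0.103), the last from 3 to 15 reads. The Mcmbp call ended without Reg1-MOs replicate 1 (limma adjusted p = 0.121) or without either control (0.0983 and 0.305).

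Of 25 other nucleotide supply genes measured, 2 rose and 0 fell (8% called, beside 12.2% of all genes). Their median was 0.08, and their difference from the 5 members was not tested. Ctps2, a CTP synthase, had 48.6 and 46.9 RPM with Reg1-MOs against 36.9 and 38.0 with Ctrl MO, with log2 fold change 0.35 (SE 0.08, limma adjusted p = 0.0299). Impdh1, an enzyme of guanine nucleotide synthesis, had 23.0 and 21.6 RPM against 17.1 and 17.4 with Ctrl MO, at 0.37 (SE 0.09, limma adjusted p = 0.0468). Both rose by a similar amount, but the Impdh1 call ended without any 1 of the 4 libraries (limma adjusted p up to 0.238) and that of Ctps2 without Reg1-MOs replicate 1 or either control (up to 0.217). Samhd1, which hydrolyses deoxynucleotides and is known for keeping them scarce in macrophages, had 2628 and 2750 RPM with Reg1-MOs against 3088 and 3288 with Ctrl MO, at -0.25 (SE 0.07, limma adjusted p = 0.0547). Per kb it averaged 748 RPM, against 2.86 for Rrm1 and 0.820 for Rrm2, by principal transcript length; with exon union lengths the levels were 321 for Samhd1, 1.04 for Rrm1 and 0.649 for Rrm2. The serine hydroxymethyltransferase gene Shmt2 stood at 0.30 (limma adjusted p = 0.0667).

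Of 19 E2F, RB and S-phase cyclin-CDK genes measured, 0 rose and 1 fell (5.26% called, beside 12.2% of all genes). E2f8, an atypical E2F that represses E2F target genes, had 22.5 and 23.4 RPM with Reg1-MOs against 30.7 and 32.1 with Ctrl MO, with log2 fold change -0.45 (SE 0.09, limma adjusted p = 0.0177). The call ended without Reg1-MOs replicate 1 (limma adjusted p = 0.0763) or either control (0.0626 and 0.141). The phosphatase gene Cdc25a stood at -0.36 (adjusted p = 0.0650), Cdk2 at 0.42 (0.0904) and the RB relative Rbl1 at -0.37 (limma adjusted p = 0.107).

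Of 26 mitosis genes measured, 0 rose and 4 fell (15.4%), beside 6.03% of all genes that fell and 12.2% called in either direction. Their median log2 fold change was -0.38, beside -0.03 for all genes and 0.02 for the replication and nucleotide supply genes, and the difference between the lists was not tested. The ubiquitin-conjugating enzyme Ube2c, which acts with the anaphase-promoting complex, had 1.88 and 1.60 RPM with Reg1-MOs against 4.27 and 3.80 with Ctrl MO (-1.21, SE 0.19, limma adjusted p = 0.00856). Ccnb2, a mitotic cyclin, fell by 1.12, Top2a, a topoisomerase, by 0.70 and Birc5, of the chromosomal passenger complex, by 1.35 on the log2 scale. Ube2c passed with any 1 library left out, whereas the calls of Ccnb2 (limma adjusted p = 0.0770) and Top2a (0.0857) ended without Reg1-MOs replicate 1 and that of Birc5 ended without any 1 of the 4 libraries (0.0604 to 0.164).

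**Figure D5:**
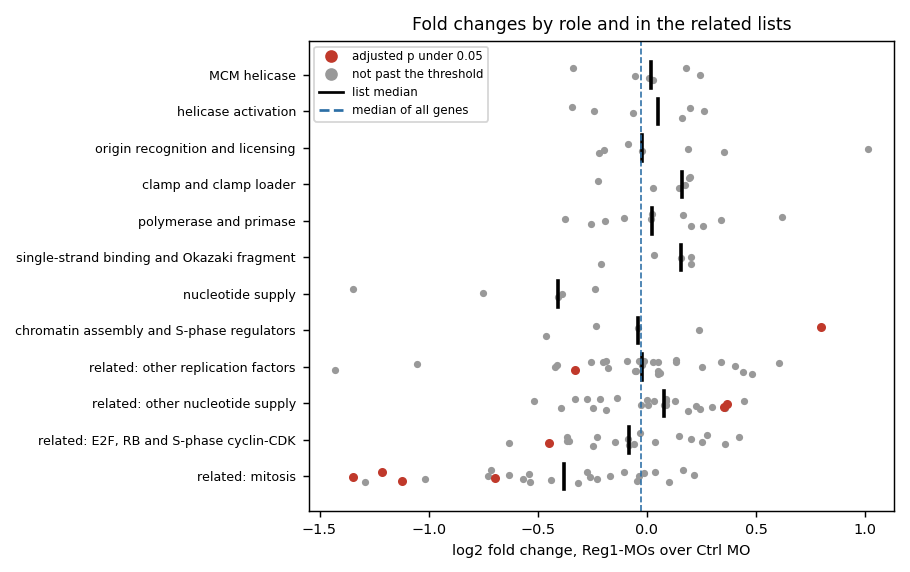
Log2 fold changes, Reg1-MOs over Ctrl MO, of each role of the replication and nucleotide supply genes and of the 4 related lists; each point is a gene, black bars are list medians and the dashed line is the median of all genes. Medians lie between -0.08 and 0.16 except for nucleotide supply (-0.41) and mitosis (-0.38).

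Markers of other cell types were read in the same libraries, in which 6.03% of all genes fell and 12.2% were called in either direction. All 9 measured of 12 stromal and fibroblast markers fell, with summed levels of 117 to 138 RPM with Reg1-MOs and 302 to 318 with Ctrl MO and a median log2 fold change of -1.43. Of the lymphocyte markers, 3 measured of 8, 1 fell, and they summed to 29.7 to 32.4 RPM with Reg1-MOs and 42.8 to 43.5 with Ctrl MO, and 7 of 8 neutrophil and precursor markers, of which 0 passed, to 270 to 348 with Reg1-MOs and 322 to 367 with Ctrl MO, which overlap. The 2 measured endothelial markers of 4, of which 0 passed, summed to 37.8 to 46.9 RPM with Reg1-MOs and 53.6 to 54.7 with Ctrl MO, and 1 of 5 mast cell markers was measured and fell, at 2.30 to 2.39 RPM with Reg1-MOs and 3.70 to 3.75 with Ctrl MO. None of the 6 erythroid markers was among the genes measured. Whether other cells in the cultures contributed to the lower levels of the nucleotide supply and mitosis genes was not tested. Replicates of the Reg1-MOs group also differed more from each other than the controls did, the chi-square over genes, per degree of freedom, being 15.2 between the Reg1-MOs libraries and 4.25 between the Ctrl MO libraries.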

How the data were processed

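The labels' protocols give polyA RNA, a directional NEBNext kit and a NextSeq instrument. The submitters' processing notes name cutadapt, FastQC, HISAT2 1.6.3 and mm10. Counter, strand setting, gene filter and normalization: not given in the sources used here. As values, the authors deposited 1 log2 value per gene and library. Its linear value, divided by a constant per library and less an offset of 0.5, was within 0.01 of a whole number for 100% of genes, so whole reads were recovered. These sum to 1.27 to 1.32 times the library size that the scale implies, so RPM on this scale are not shares of the table's total.

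limma 3.58.1 (R 4.3.3; moderated test with a mean-variance trend, two-sided, all 11111 genes, no filter, group as the only term) was run on the log2 values and had been tested on simulated data. Up to 11 alternative fits were made per result. Positions, exon overlaps and principal transcript lengths come from GENCODE M21 on GRCm38, which mm10 names. All members could be named, with every library's value for members past the threshold and for the 2 smallest p-values per role; the 4 smallest p-values were named in each related list. Members given in more detail than this, and the promoter stretches printed, were picked with their values in view. The members and lists were chosen with earlier results of these data known.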

Additional observations from a re-analysis of the deposited data

How the results depend on the processing

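The count of all genes that rose and fell was 691 and 670; it was 195 and 182 without a variance trend, and 249 to 530 and 258 to 860 with 1 library left out. Among the replication and nucleotide supply genes, 0 rose with the filter of 50 reads (Chaf1b is then not tested) or without the trend, 1 fell (Tk1) with quantile normalization, equal totals or voom weights, and 0 to 1 rose and 0 to 1 fell with 1 library left out; their median was 0.0459 with equal totals and -0.0182 to 0.0545 with 1 library left out.

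Of the other replication factors, 1 rose with quantile normalization or equal totals, 0 fell without the trend, and 0 to 1 fell with 1 library left out, with medians of 0.00195 (equal totals) and -0.052 to 0.032. Of the other nucleotide supply genes, 0 rose without the trend, 1 fell with quantile normalization, the filter of 50 reads or voom weights, and 0 to 1 rose with 1 library left out. Of the E2F, RB and cyclin-CDK genes, 0 fell without the trend and 0 to 2 with 1 library left out. Of the mitosis genes, 2 fell without the trend and 1 to 3 with 1 library left out, with medians of -0.331 (quantile normalization), -0.317 (offset of 8 reads), -0.290 (filter of 50 reads) and -0.444 to -0.36.

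Signs changed for some members. Mcm7 stood at 0.0136 with quantile normalization and Orc4 at 0.000851 with equal totals. With 1 library left out, Mcm4 ranged from -0.0393 to 0.094, Mcm6 from -0.0833 to 0.104, Mcm7 from -0.191 to 0.0786, Cdc45 from -0.432 to 0.304, Gins3 from -0.106 to 0.497, Rfc2 from -0.0178 to 0.0772, Prim1 from -0.387 to 0.18, Pold1 from -0.0286 to 0.0746, Pole3 from -0.0297 to 0.066, Lig1 from -0.0275 to 0.0957 and E2f1 from -0.0808 to 0.00377. The cause of these differences was not tested; each such fit had 1 library in a group, which is assumed to vary like the others. Mcm6 stood at 6.16 times the other MCM genes with exon union lengths, an alternative chosen after seeing the data.

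The labels do not pair the replicates; replicate 1 minus replicate 2 correlated between the groups at 0.0958 over all genes and 0.314 over those averaging 50 reads or more. With the replicate number as a block, 1532 genes rose and 1891 fell; among the members 3 rose and 2 fell, with Cdt1, Pold3, Rrm2 and Tk1 newly past the threshold. In the related lists, 2 other replication factors rose and 3 fell, 6 other nucleotide supply genes rose and 3 fell, 1 E2F, RB or cyclin-CDK gene rose and 3 fell, and 7 mitosis genes fell under the block.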
